A study of Homo sapiens with 14 samples.

Results

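RORA, NR1D1, NR1D2, PER1, PER2, PER3, CRY1, CRY2 and DBP are a nuclear receptor of the ROR family and 8 genes of the circadian clock that ROR receptors act with. Their rows were picked from the expression tables by gene symbol alone, 9 of 35633 symbols, and all 9 were listed in every one of the 14 libraries. Ursolic acid (UA), a plant triterpenoid, and digoxin, a cardiac glycoside that inhibits the sodium pump, were the natural compounds whose effects on cancer cells the study compared. RNA was sequenced from C4-2B cells, an androgen receptor-positive prostate cancer line derived from LNCaP, and from HCC70 cells, a triple-negative breast cancer line, both labelled WT and grown in RPMI-1640 with 10% fetal bovine serum. C4-2B cells received vehicle or 10 µM UA in one series and vehicle or 100 nM digoxin in another, and HCC70 cells received vehicle, 5 µM UA or 10 µM UA, each for 24 or 48 h. Each tumour type is represented by 1 line, no synchronisation of the cells is described in the sources used here, and every condition has 1 library, so values carry no replicate error and no test was made.

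The circadian clock is a loop of transcription. A dimer of BMAL1 (gene ARNTL) with CLOCK or its paralog NPAS2 binds E-boxes and activates the PER and CRY genes, whose proteins return to block the dimer, as well as NR1D1, NR1D2 and DBP. NR1D1 and NR1D2 encode REV-ERBα and REV-ERBβ, which repress ARNTL and other genes at the same response elements where RORα activates them, and DBP, TEF and HLF activate D-boxes that the repressor NFIL3 also binds.

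Stretches near the start of these genes that match the letters of clock control motifs are shown. They were looked at because PER1 and PER3, which both hold a D-box match, stood on opposite sides of vehicle in the same cells. That pair was named for its values. NR1D2 holds a D-box match too, and PER1 holds an E-box match that PER3 lacks in its windows. Whether any of these matches bears on the expression values was not tested. RefSeq windows from 250 bases before to 50 bases after the start (GRCh38.p14) were found for 9 of 9 members, 12 windows in all. They were searched on both strands for the E-box CACGTG, the E-prime-box CACGTT, the D-box TTATGNAA, the ROR/REV-ERB half-site TAGGTCA or TGGGTCA, and the cyclic AMP response element TGACGTCA. Of 35116 windows of all genes, these motifs were in 7.26%, 5.34%, 3.3%, 5.69% and 1.85%. At least 1 motif was in a window of 7 members, and none was in those of RORA and DBP. NR1D2, PER3 and CRY2 each have a further window, which held none of these motifs. The share of all genes with any of the motifs was not counted, so the 7 of 9 members have no background to be set against. The stretches below run 5′ to 3′ on the gene's own strand, with the motifs in capitals on either strand. PER1 (chr17:8152412-8152592, minus strand) has an E-box at -173 and a D-box at -30 counted from the start, and PER3 (chr1:7784099-7784136, plus strand) has a D-box. NR1D2 (chr3:23945912-23946036, plus strand) has a D-box, 2 E-boxes and between these a ROR/REV-ERB half-site read on the opposite strand. NR1D1 (chr17:40100737-40100772, minus strand), PER2 (chr2:238288787-238288822, minus strand) and CRY1 (chr12:107093618-107093653, minus strand) have an E-prime-box only. CRY2 (chr11:45847272-45847431, plus strand) has an E-prime-box and a ROR/REV-ERB half-site. A match is a string of letters and not a measured binding site.
PER1: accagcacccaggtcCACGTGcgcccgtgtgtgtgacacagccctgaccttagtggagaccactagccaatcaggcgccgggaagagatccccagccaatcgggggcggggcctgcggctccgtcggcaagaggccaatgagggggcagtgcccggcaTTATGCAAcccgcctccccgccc
PER3: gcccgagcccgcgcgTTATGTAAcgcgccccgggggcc
NR1D2: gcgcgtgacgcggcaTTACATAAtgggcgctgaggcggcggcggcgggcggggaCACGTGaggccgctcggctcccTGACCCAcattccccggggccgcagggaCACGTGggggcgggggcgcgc
NR1D1: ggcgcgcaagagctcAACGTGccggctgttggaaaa
PER2: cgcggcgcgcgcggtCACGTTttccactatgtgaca
CRY1: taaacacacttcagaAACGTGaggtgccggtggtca
CRY2: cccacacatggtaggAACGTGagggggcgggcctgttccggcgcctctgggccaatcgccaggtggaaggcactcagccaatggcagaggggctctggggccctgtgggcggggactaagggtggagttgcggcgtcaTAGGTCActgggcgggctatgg

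Depth had to be estimated from the values and is rough. Low values multiplied by gene length fell on steps that put each library between 12050000 and 14550000 fragments. Between 11210 and 12163 genes stood above 1 FPKM (fragments per kilobase of exon, scaled to the mapped reads of the library). Of 7 prostate luminal markers, 7 were above 1 FPKM in each C4-2B library and 1 (TMPRSS2) in each HCC70 library. All 6 of 6 basal markers were above 1 FPKM in each HCC70 library and 2 to 6 of them in the C4-2B libraries. The basal markers summed to 1901 to 5990 FPKM in HCC70 libraries and to 28.7 to 50.8 FPKM in C4-2B libraries. In HCC70 cells ESR1 stayed at or below 0.71 FPKM and PGR was at 0, while ERBB2 mRNA was present at 19.8 FPKM or more. Of 3 fibroblast markers, COL1A2 and DCN were at 0 in every library and COL1A1 was at 3.11 to 8.97 FPKM. The vehicle libraries of 48 over 24 h, which differ by time as well, had a robust SD of the log2 ratio over all genes of 0.24 in the UA series of C4-2B, 0.34 in its digoxin series and 0.35 in HCC70. Ratios below are on the scale of log2(FPKM + 0.1), a gene entered a comparison when it was above 1 FPKM in either library, and a gene is called higher or lower only at 2-fold or more.

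By the mean of both vehicles, DBP was the most abundant of the 9 mRNAs per unit length and RORA the least, in either line and series. The levels at 24 and 48 h were 16.5 and 17.2 FPKM for DBP in the C4-2B UA series, 11.1 and 16.4 FPKM in its digoxin series, and 20.2 and 20.5 FPKM in HCC70 cells. In the C4-2B UA series the order went on with PER1, PER3, CRY1, NR1D1, PER2, CRY2, NR1D2 and RORA. Neighbours in that order from PER3 to NR1D1 and the pair CRY2 and NR1D2 overlapped between the times. In HCC70 cells NR1D1 came second, at 11.8 FPKM at both times, followed by PER3, CRY1, PER1, NR1D2, CRY2, PER2 and RORA, and CRY1, PER1 and NR1D2 overlapped. In the digoxin series PER3, CRY1, PER1, NR1D2, PER2, NR1D1, CRY2 and RORA followed DBP, and neighbours overlapped except CRY1 with PER1 and CRY2 with RORA.

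Against the C4-2B vehicles of the UA series, those of HCC70 differed most in RORA and in PER1 and PER2. HCC70 over C4-2B vehicle of the UA series gave log2 ratios of -3.21 at 24 h and -3.76 at 48 h for RORA, -1.62 and -2.20 for PER1, and -1.43 and -1.25 for PER2. These were the 3 members past 2-fold at either time, where 51.6% and 52.8% of all genes were past 2-fold and the median over all genes was -0.34 and -0.42. NR1D1 was at 0.78 and 0.79 on that scale and DBP at 0.29 and 0.25. Relative to the median of all genes at 48 h, PER2 was at -0.83 and no longer past 2-fold, while NR1D1 and PER3 were at 1.20 and 1.13. The C4-2B vehicles of the digoxin series lay nearer to HCC70 in PER1 and farther off in NR1D1. At 24 and 48 h PER1 was at 6.37 and 5.34 FPKM there, against 4.85 and 3.33 FPKM in HCC70 vehicles. NR1D1 was at 4.34 and 3.06 FPKM, against 11.77 and 11.84 FPKM. The size of a line difference thus depends on the C4-2B series used. NPAS2 stood at 9.47 and 10.1 FPKM in the C4-2B vehicles of the UA series and at 4.54 and 5.76 FPKM in those of the digoxin series. In HCC70 vehicles it stood at 92.0 and 90.5 FPKM. HLF, a D-box activator at 6.21 to 9.47 FPKM in all C4-2B vehicles, was at or below 0.21 FPKM in those of HCC70. The plot of levels shows these differences library by library.

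**Figure D1:**
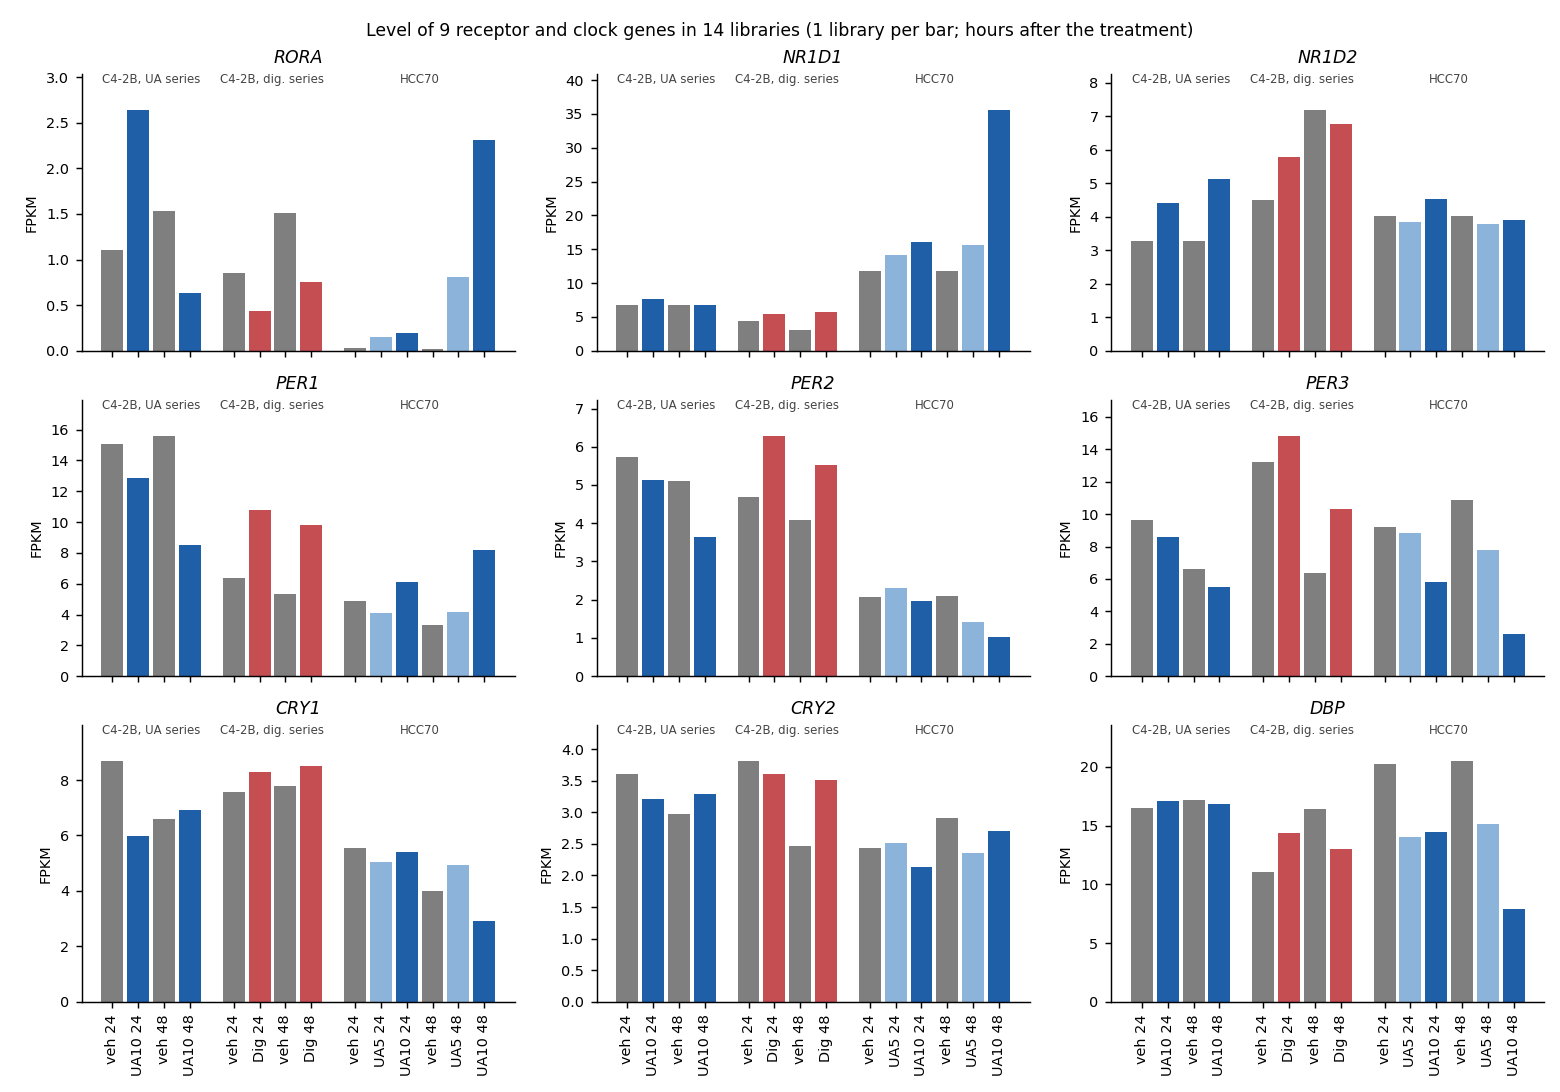
Level of the 9 genes (FPKM, each bar 1 library, each panel with its own linear axis from 0) in C4-2B cells of the UA series, C4-2B cells of the digoxin series and HCC70 cells. Grey bars are vehicle, dark blue 10 µM UA, light blue 5 µM UA and red 100 nM digoxin at 24 or 48 h. NR1D1 reaches 35.6 FPKM with 10 µM UA at 48 h in HCC70 cells against 3.06 to 16.1 FPKM in the other 13 libraries, while PER3 and DBP have their lowest bars there, at 2.58 and 7.90 FPKM.

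RORA (ENSG00000069667, hg38 chr15:60488284-61229302, minus strand) encodes the receptor RORα. In the C4-2B UA series it stood at 1.10 FPKM with vehicle and 2.64 FPKM with UA at 24 h, and at 1.53 FPKM with vehicle and 0.63 FPKM with UA at 48 h. In the digoxin series it stood at 0.85 FPKM with vehicle and 0.43 FPKM with digoxin at 24 h, and at 1.51 and 0.75 FPKM at 48 h. The UA library was thus the higher of its pair at 24 h and the lower at 48 h, and the digoxin library was the lower at both times. In HCC70 cells RORA stood at 0.03, 0.15 and 0.19 FPKM with vehicle, 5 µM and 10 µM UA at 24 h, and at 0.02, 0.81 and 2.31 FPKM at 48 h. Both HCC70 vehicles were nearly without RORA mRNA, and at 48 h the level was higher at 5 µM and higher again at 10 µM. At 24 h the values at 5 and 10 µM stand for about 23 and 25 fragments, so that no order of the doses can be read from them.

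RORA was the single member past 2-fold in C4-2B cells with UA, higher at 24 h (log2 ratio 1.19) and lower at 48 h (-1.16), where 2.32% and 2.77% of all genes were past 2-fold. Both calls were lost with a pseudocount of 1 and with a filter above 5 FPKM. The C4-2B UA library of 48 h was also the only C4-2B library with 6 of 6 basal markers above 1 FPKM. KRT5 was at 2.18, KRT17 at 3.89 and KRT6B at 1.23 FPKM against 0.24, 0.14 and 0.25 FPKM in its vehicle. KRT14, EGFR and CDH3 were lower, at 2.93, 18.1 and 6.41 FPKM against 4.66, 21.5 and 9.85 FPKM. The sum of the 6 was 34.8 FPKM against 36.6 FPKM in the vehicle. The part of these markers in the RORA value was not tested. With digoxin the ratio was -0.84 at 24 h, with both libraries under 1 FPKM, and -0.92 at 48 h. In HCC70 cells at 10 µM and 48 h the ratio of RORA was 4.33, and its size depends on the pseudocount because the vehicle value of 0.02 FPKM stands for about 3 fragments and the treated value for about 354. With a pseudocount of 1 it was 1.70 and with 0.01 it was 6.27. As the fragment numbers are estimates, no counting interval is given. RORA-AS1, an antisense RNA whose exons overlap those of RORA, was at or below 0.23 FPKM in every library.

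The paralog RORB was listed at 0 in every library except the C4-2B UA library of 48 h, at 0.04 FPKM.

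NR1D1 (ENSG00000126368, hg38 chr17:40092793-40100589, minus strand) encodes REV-ERBα, the repressor that opposes the ROR receptors. In HCC70 cells it stood at 11.8, 14.2 and 16.1 FPKM with vehicle, 5 µM and 10 µM UA at 24 h and at 11.8, 15.7 and 35.6 FPKM at 48 h. The level was higher than vehicle in each of the 4 UA libraries, by log2 ratios of 0.27 and 0.40 at 5 µM and 0.45 and 1.58 at 10 µM. In C4-2B cells it stood at 6.79 and 7.60 FPKM with vehicle and UA at 24 h and at 6.82 and 6.69 FPKM at 48 h, ratios of 0.16 and -0.03. With digoxin it went from 4.34 to 5.40 FPKM and from 3.06 to 5.77 FPKM, ratios of 0.31 and 0.89. The C4-2B vehicles of 48 h differed past 2-fold, by -1.13 for the digoxin over the UA series, where 16.8% of all genes were past 2-fold. Set against the vehicle of the other series, NR1D1 with digoxin turned to -0.33 at 24 h and -0.24 at 48 h, and with UA it was at 0.79 and 1.10, the last past 2-fold. Of the exons of NR1D1 17.98% overlap those of THRA on the other strand, and the kit named does not keep strand, so reads from the overlap cannot be assigned. THRA, a thyroid hormone receptor, went from 16.03 to 11.1 FPKM (-0.53) where NR1D1 was highest.

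NR1D2 (ENSG00000174738, hg38 chr3:23945286-23980617, plus strand), which encodes the paralog REV-ERBβ, had the smallest range of ratios of the 9 genes in HCC70 cells. It stood at 4.03, 3.85 and 4.53 FPKM with vehicle, 5 µM and 10 µM UA at 24 h and at 4.03, 3.78 and 3.90 FPKM at 48 h, with ratios between -0.09 and 0.16. In C4-2B cells UA gave 4.40 against 3.27 FPKM at 24 h and 5.11 against 3.27 FPKM at 48 h, ratios of 0.42 and 0.63. With digoxin it was 5.77 against 4.51 FPKM at 24 h and 6.76 against 7.18 FPKM at 48 h. No NR1D2 ratio was past 2-fold against the vehicle of its own series. The C4-2B vehicles of 48 h differed by 1.11 for the digoxin over the UA series. Set against the vehicle of the other series, NR1D2 with UA turned to -0.03 at 24 h and -0.48 at 48 h, and with digoxin it was at 0.80 and 1.03, the last past 2-fold.

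PER1 (ENSG00000179094, hg38 chr17:8140472-8156506, minus strand), a repressor of the BMAL1 dimer, stood below vehicle in C4-2B cells and above it in HCC70 cells with 10 µM UA. In C4-2B cells it stood at 15.1 FPKM with vehicle and 12.9 FPKM with UA at 24 h and at 15.6 and 8.51 FPKM at 48 h, ratios of -0.23 and -0.87. In HCC70 cells it stood at 4.85, 4.11 and 6.11 FPKM with vehicle, 5 µM and 10 µM UA at 24 h and at 3.33, 4.17 and 8.16 FPKM at 48 h. The ratios at 10 µM were 0.33 and 1.27, and those at 5 µM were -0.23 and 0.32. Between the HCC70 vehicles PER1 differed by -0.53 for 48 over 24 h, so the vehicle of 48 h was the lower one. With digoxin PER1 was the higher in the treated C4-2B library at both times, 10.8 against 6.37 FPKM and 9.81 against 5.34 FPKM, ratios of 0.75 and 0.87. The vehicles of the C4-2B series differed more than that, with log2 ratios of -1.23 and -1.53 for the digoxin over the UA series, where 10.1% and 16.8% of all genes were past 2-fold. Set against the vehicle of the other series, PER1 with UA turned to 1.00 at 24 h and 0.66 at 48 h, and with digoxin to -0.48 and -0.66.

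PER2 (ENSG00000132326, hg38 chr2:238244044-238290102, minus strand), which shares this repressor role, was lower with UA in both C4-2B pairs and at 48 h in HCC70 cells, each time by less than 2-fold. It stood at 5.74 and 5.13 FPKM with vehicle and UA at 24 h and at 5.10 and 3.65 FPKM at 48 h in C4-2B cells. Against the vehicle of the other series the ratio with UA at 24 h turned to 0.13. In HCC70 cells it stood at 2.06, 2.30 and 1.96 FPKM with vehicle, 5 µM and 10 µM UA at 24 h and at 2.09, 1.42 and 1.02 FPKM at 48 h, with a ratio of -0.97 at the high dose. This value lay just under the 2-fold line and past it with a pseudocount of 0.01. With digoxin PER2 was 6.29 against 4.68 FPKM and 5.53 against 4.08 FPKM, ratios of 0.42 and 0.43.

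PER3 (ENSG00000049246, hg38 chr1:7784291-7845177, plus strand), the third paralog, had the lowest ratio of the members in HCC70 cells at 10 µM UA. It stood at 9.21, 8.86 and 5.82 FPKM with vehicle, 5 µM and 10 µM UA at 24 h and at 10.9, 7.80 and 2.58 FPKM at 48 h. All 4 UA libraries were below their vehicle, with ratios of -0.06 and -0.48 at 5 µM and -0.65 and -2.04 at 10 µM. In C4-2B cells it stood at 9.66 and 8.58 FPKM with vehicle and UA at 24 h and at 6.59 and 5.49 FPKM at 48 h, ratios of -0.17 and -0.26. With digoxin it was 14.8 against 13.2 FPKM and 10.3 against 6.36 FPKM, ratios of 0.17 and 0.69. PER3 was also the member that differed most between untreated times in that series (-1.04 for 48 over 24 h), where 4.45% of all genes were past 2-fold. UTS2, whose exons overlap those of PER3, was at 0 in every library.

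CRY1 (ENSG00000008405, hg38 chr12:106991364-107093549, minus strand) and CRY2 (ENSG00000121671, hg38 chr11:45847118-45883248, plus strand), the partners of the PER proteins, stayed within 2-fold of vehicle in every comparison. In C4-2B cells CRY1 stood at 8.68 and 5.97 FPKM with vehicle and UA at 24 h and at 6.60 and 6.91 FPKM at 48 h, and with digoxin at 8.29 against 7.57 FPKM and 8.50 against 7.78 FPKM. In HCC70 cells CRY1 stood at 5.56, 5.03 and 5.40 FPKM with vehicle, 5 µM and 10 µM UA at 24 h and at 3.98, 4.93 and 2.90 FPKM at 48 h. The largest difference of CRY1 was between the doses at 48 h, a ratio of -0.75 for 10 over 5 µM. CRY2 ranged from 2.46 to 3.81 FPKM over the 8 C4-2B libraries and from 2.13 to 2.91 FPKM over the 6 HCC70 libraries, with ratios from -0.29 to 0.50.

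DBP (ENSG00000105516, hg38 chr19:48630030-48637379, minus strand), an activator of D-box genes and a classical output of the E-box loop, was lower in each of the 4 UA libraries of HCC70 cells. It stood at 20.2, 13.99 and 14.5 FPKM with vehicle, 5 µM and 10 µM UA at 24 h and at 20.5, 15.2 and 7.90 FPKM at 48 h. The ratios were -0.53 and -0.43 at 5 µM and -0.48 and -1.36 at 10 µM, so that only the last was past 2-fold. In C4-2B cells with UA the pairs were close, at 16.5 and 17.1 FPKM at 24 h and 17.2 and 16.9 FPKM at 48 h. With digoxin DBP was 14.4 against 11.1 FPKM at 24 h and 12.97 against 16.4 FPKM at 48 h, while its vehicles differed by 0.57 between the times. SPHK2, whose exons overlap 10.2% of those of DBP on the other strand, went from 5.39 to 4.17 FPKM (-0.36) where DBP was lowest.

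**Figure D2:**
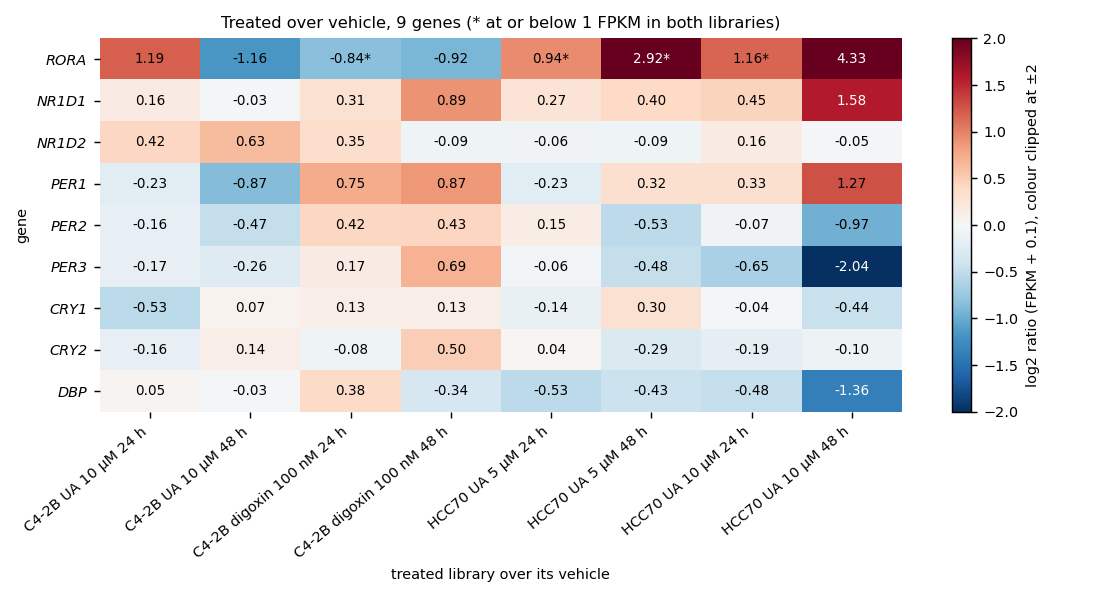
Log2 ratio of FPKM + 0.1, treated over vehicle of the same line, series and time, for the 9 genes (rows) in 8 comparisons (columns), with colour clipped at 2 on either side and an asterisk where both libraries were at or below 1 FPKM. The last column, HCC70 cells with 10 µM UA at 48 h, holds the strongest colours: RORA 4.33, NR1D1 1.58 and PER1 1.27 on the high side and PER3 -2.04 and DBP -1.36 on the low side.

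HCC70 cells at 10 µM UA and 48 h were the condition in which most members were past 2-fold. RORA, NR1D1 and PER1 were higher and PER3 and DBP lower, 5 of 9, where 20.1% of all genes were past 2-fold, 6.79% higher and 13.3% lower. The median of the members was -0.10 and that of all 11858 genes -0.20. Relative to the latter RORA was at 4.53, NR1D1 at 1.78, PER1 at 1.47, DBP at -1.16 and PER3 at -1.83, while NR1D2 and CRY2 turned from -0.05 and -0.10 to 0.16 and 0.10. At 5 µM no member of 8 above 1 FPKM was past 2-fold at 24 or 48 h (1.75% and 2.35% of all genes), and at 10 µM and 24 h again none of 8 (3.77%). RORA was the member that did not pass the filter in these 3 comparisons. Its ratios there were 0.94 and 2.92 at 5 µM (24 and 48 h) and 1.16 at 10 µM and 24 h. At 10 µM and 48 h RORA passed only through the treated library, at 2.31 against 0.02 FPKM in vehicle. Its place in the 5 of 9 and its absence from the other counts thus depend on the filter. Both doses share the vehicle library of their time. The direct ratio of 10 over 5 µM at 48 h, which does not use the vehicle, was 1.41 for RORA, 1.18 for NR1D1, 0.95 for PER1, -0.93 for DBP and -1.56 for PER3, with 3 of 9 members and 13.8% of all genes past 2-fold. In this library the proliferation markers MKI67, TOP2A, CCNB1 and CDK1 summed to 38.0 FPKM, against 139 FPKM in its vehicle and 122 to 147 FPKM in the other HCC70 libraries, and the part of that difference in the clock gene values was not tested. In bulk RNA, fewer cells of a kind and less RNA per cell cannot be told apart.

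**Figure D3:**
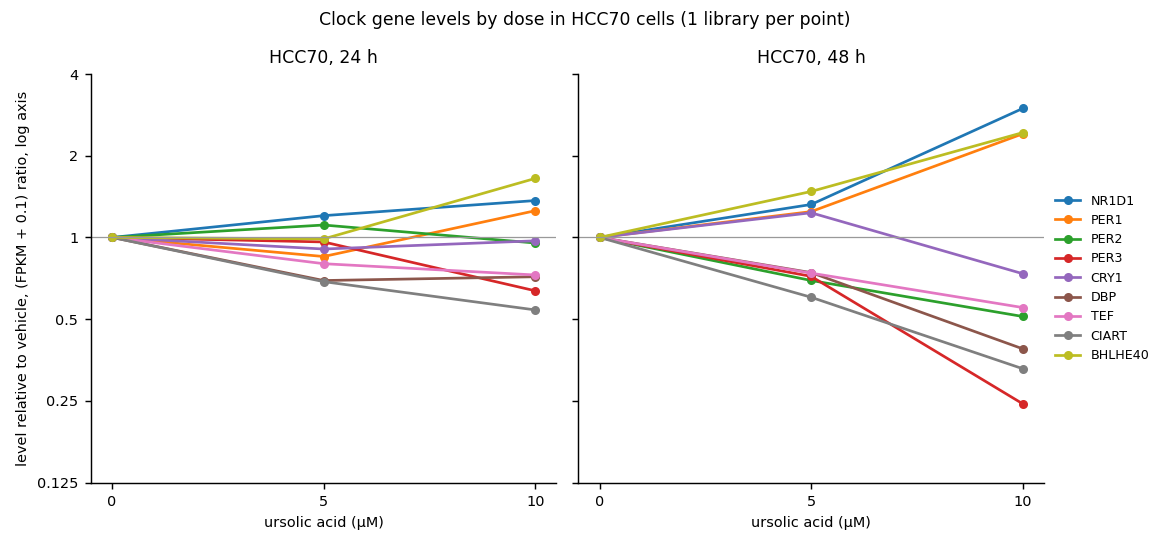
Level relative to vehicle (ratio of FPKM + 0.1, log axis) against UA dose (µM) in HCC70 cells at 24 h (left) and 48 h (right), each point 1 library. At 48 h NR1D1, PER1 and BHLHE40 lie above vehicle at 10 µM, with ratios of 2.99, 2.41 and 2.43, and PER3, CIART and DBP lie below, at 0.244, 0.328 and 0.389.

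Digoxin at 100 nM took no member past 2-fold in C4-2B cells, of 8 above 1 FPKM at 24 h and 9 at 48 h, where 4.39% and 6.11% of all genes were past 2-fold. Without reaching 2-fold, 7 of the 8 members stood above vehicle at 24 h, where 61.9% of all genes did. Their median was 0.33 beside 0.12 for all genes. At 48 h 6 of 9 members stood above vehicle, where 48.4% of all genes did, with a median of 0.43 beside -0.02. Against the vehicle of the other series the medians with digoxin were -0.066 at 24 h and 0.11 at 48 h. With UA in the same line 4 of 9 stood above vehicle at 24 h (median -0.16, all genes -0.01) and 3 of 9 at 48 h (median -0.03, all genes 0.01). Of all genes 47.2% and 52% stood above vehicle at these times. Against the other vehicle the medians of the members with UA were 0.13 and -0.16. The agents were given at different doses and in separate series, so these values stand side by side and were not compared. Over the 8 comparisons the members lay against all genes as the plot of their spread shows.

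**Figure D4:**
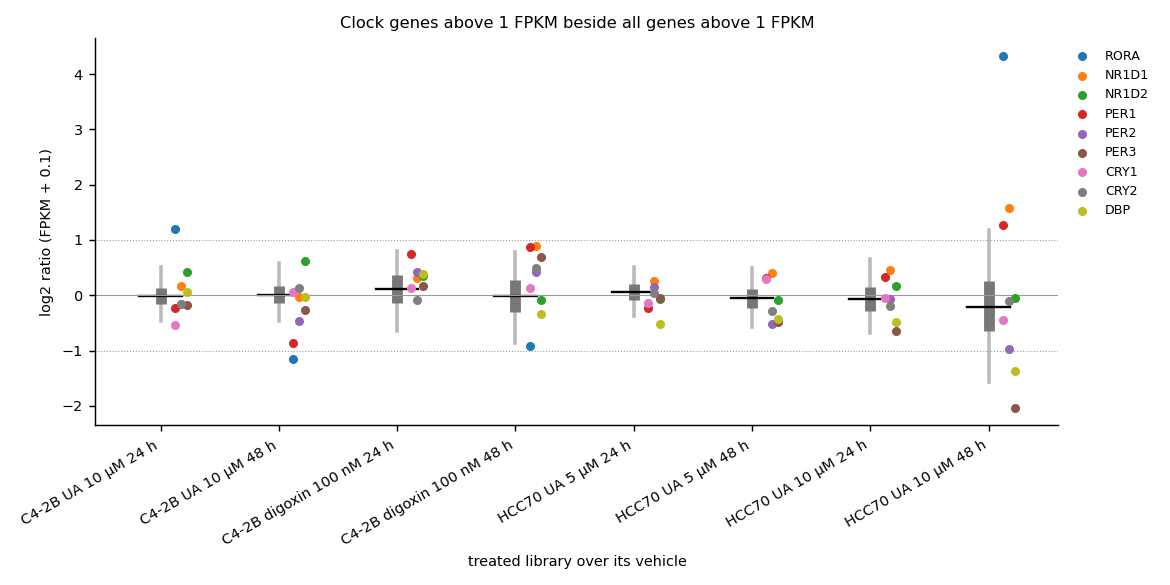
Log2 ratio (FPKM + 0.1) of each member above 1 FPKM (coloured points) in the 8 comparisons of a treated library with its vehicle, beside all genes above 1 FPKM (black line, median; thick grey bar, lower to upper quartile; thin grey bar, 5th to 95th percentile). Dotted lines mark 2-fold. For HCC70 cells with 10 µM UA at 48 h the grey range spans -1.57 to 1.18, and RORA, NR1D1, PER1 and PER3 lie outside it.

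Around the members, 34 further clock pathway genes were followed. With UA in C4-2B cells 1 of 30 above 1 FPKM was past 2-fold at 24 h, on the high side, and none at 48 h, beside 2.32% and 2.77% of all genes. With digoxin 1 was higher and 1 lower of 30 at 24 h and 1 of 30 was higher at 48 h, beside 4.39% and 6.11% of all genes. In HCC70 cells none was past 2-fold at 5 µM (1.75% and 2.35% of all genes), and 1 was higher and 1 lower of 31 at 10 µM and 24 h (3.77%). At 10 µM and 48 h 2 were higher and 7 lower of 31, where 6.79% of all genes were higher and 13.3% lower. None of the 4 activators was past 2-fold in any of the 8 comparisons. With 10 µM UA at 48 h in HCC70 cells ARNTL, the gene of BMAL1, went from 3.69 to 6.39 FPKM (0.78), CLOCK from 7.18 to 8.46 FPKM (0.23), NPAS2 from 90.5 to 113.8 FPKM (0.33) and ARNTL2, the gene of BMAL2, from 11.0 to 9.39 FPKM (-0.22). Across all 8 comparisons the activator ratio farthest from 0 was -0.80, for NPAS2 with digoxin at 48 h (5.76 to 3.27 FPKM).

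The other repressors were split in that library. BHLHE40 (DEC1), which competes for E-boxes, went from 70.5 to 171.6 FPKM (1.28), and its paralog BHLHE41 (DEC2) from 18.5 to 5.61 FPKM (-1.71). CIART, a repressor of the BMAL1 dimer, was lower in all 4 UA libraries of HCC70 cells, with 8.02, 5.48 and 4.29 FPKM with vehicle, 5 µM and 10 µM at 24 h and 6.66, 3.97 and 2.12 FPKM at 48 h. Of these only the last was past 2-fold (-1.61). In C4-2B cells BHLHE41 was 5.73 against 1.67 FPKM with UA at 24 h (1.72) and 4.07 against 8.68 FPKM with digoxin at 24 h (-1.07), but its vehicles ranged from 1.67 to 8.68 FPKM. TEF, a paralog of DBP, was lower in the same 4 HCC70 libraries, by ratios of -0.32 and -0.44 at 5 µM and -0.46 and -0.86 at 10 µM, and it was past 2-fold with digoxin at 48 h in C4-2B cells (5.35 to 11.5 FPKM, 1.09). NFIL3, the D-box repressor, went from 9.71 to 16.4 FPKM (0.75) in HCC70 cells at 10 µM and 48 h and from 2.72 to 4.92 FPKM (0.83) in C4-2B cells with UA at 24 h.

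**Figure D5:**
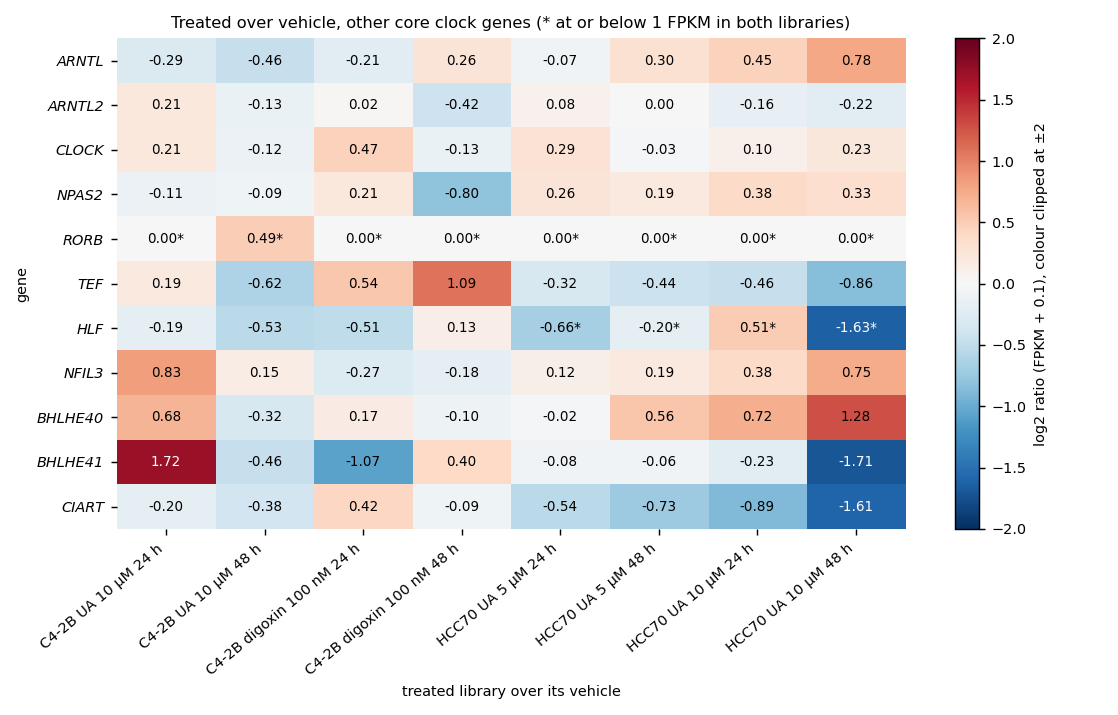
Log2 ratio of FPKM + 0.1, treated over vehicle, for core clock genes beyond the members (rows) in 8 comparisons (columns), colour clipped at 2 on either side, asterisk where both libraries were at or below 1 FPKM. In HCC70 cells CIART and TEF are below 0 at both doses and times, and at 10 µM and 48 h BHLHE40 is at 1.28 and BHLHE41 at -1.71.

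Among outputs and cofactors the same library had NAMPT, the enzyme of NAD salvage, at 1166 FPKM against 239.5 FPKM (2.28). NAMPT was above vehicle in each UA library of HCC70 cells (0.32 and 0.70 at 5 µM, 0.96 at 10 µM and 24 h). CYP7B1, an oxysterol hydroxylase, went from 15.1 to 3.52 FPKM (-2.07) and ELOVL3, a fatty acid elongase, from 4.33 to 1.13 FPKM (-1.85), after 5.81 to 2.62 FPKM (-1.12) at 10 µM and 24 h. TIMELESS was at -1.38, NONO at -1.05 and the coactivator PPARGC1A at -2.28, the last after 1.08 at 24 h and at low levels throughout (0.13 to 1.67 FPKM in all 14 libraries). PPARGC1A was also past 2-fold with digoxin at 24 h (1.01). All 6 cofactors followed were below vehicle at 10 µM and 48 h in HCC70 cells, with 3 past 2-fold, where 20.1% of all genes were past 2-fold and 38.3% stood above vehicle, but relative to the median of all genes NONO was at -0.85 and HDAC3 turned to 0.07. None of the 10 kinases, ligases and turnover genes was past 2-fold there.

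By textbook control, 13 of the members and pathway genes are E-box genes and 6 are genes of the ROR response element, with CRY1 and NR1D1 in both lists. In HCC70 cells at 10 µM and 48 h the E-box genes did not move one way: of 12 above 1 FPKM, NR1D1, PER1 and BHLHE40 were higher and PER3, DBP, BHLHE41 and CIART lower past 2-fold, with 3 above and 9 below vehicle and a median of -0.65. Of all genes 20.1% were past 2-fold there and 38.3% stood above vehicle. Of the 6 ROR element genes 5 were above vehicle, with a median of 0.54 beside -0.20 for all genes, and NR1D1 alone was past 2-fold. PER1, NR1D2 and PER3, the members with a D-box in the stretches printed above, were at 1.27, -0.05 and -2.04. With digoxin the E-box genes had medians of 0.31 and 0.40 at 24 and 48 h, beside 0.12 and -0.02 for all genes. With UA in C4-2B cells the medians were -0.16 and -0.32, beside -0.01 and 0.01 for all genes. The ROR element genes had medians of 0.17 and -0.003 with digoxin and 0.02 and -0.06 with UA. Medians of these lists were not taken against the vehicle of the other series, with which the medians of the members moved.

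Patterns over the 14 libraries were compared as Pearson r of log2(FPKM + 0.1) after the mean of the line and series was taken off. These r are descriptions, since the libraries share vehicles, lines and depth. Among the members PER2 and PER3 were most alike (r = 0.83, and 0.64 over the 13 libraries without HCC70 at 10 µM and 48 h), and NR1D1 with PER1 came next (0.76 and 0.67). NR1D1 and DBP were the most opposed pair (-0.87 and -0.60). Other pairs rested on that 1 library: PER3 with DBP had 0.61 with it and -0.02 without it, and NR1D1 with PER3 -0.53 and 0.26. For PER3 and CRY2 the reverse held, with 0.41 and 0.86.

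Of 9965 genes, those whose pattern was most like NR1D1 were SLCO4A1 (0.97), WASF2 (0.95) and RTL8C (0.95), and for NR1D2 they were HERPUD2 (0.90), ESRP1 (0.90) and LINC01133 (0.89). PER1 was followed by BTG1 (0.94), DAPK3 (0.93) and FOSL2 (0.92), PER2 by KIF22 (0.97), ZC3H7B (0.96) and DNAJC11 (0.95), and PER3 by CS (0.96), DDX3X (0.96) and PLK1 (0.95). CRY1 was most like CENPW (0.93), POP5 (0.90) and INPP4B (0.89), CRY2 like ANXA11 (0.78), ANKRD40 (0.74) and TSC22D2 (0.72), and DBP like RCN2, ATP5MG and LBR (0.95 each). No other clock gene was among these 24. Without the HCC70 library of 10 µM and 48 h, the r of the 24 ran from 0.74 to 0.94, with 0.80 for CENPW, 0.74 for POP5 and 0.82 for LBR. The genes were picked as the highest of 9965, so a high r is partly built in by the choice. RORA was left out because its mean was not above 1 FPKM in each block of libraries.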

How the data were processed

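Per the labels, libraries were made from 1 µg of total RNA with an Illumina Tru-Seq RNA kit. According to the methods and the submitters' processing notes, the reads were mapped by the authors on hg38 (BWA, Bowtie), and Cufflinks turned them into FPKM. Tool versions are not given in the sources used here. The deposited FPKM values have 2 decimals. The tables of the digoxin series name no unit, and their values were taken as FPKM too. They list 26237 gene IDs against 35069 in the others. Read totals are not given, and only 26.2 to 37.0% of the values used to estimate depth were whole fragments to within 0.1. An even spread would give 20%, but the depth was fitted to these same values, so some excess over 20% is built in. Counts were therefore not recovered and no count test was run.

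Entries of 1 symbol were summed. Ratios are log2(FPKM + 0.1) of genes above 1 FPKM in either library, the filter the methods name, in 8 comparisons with vehicle, matched for line, series and time, and in 9 others. Libraries were checked for copies (at most 0.39% of values identical in any pair). The rule for named genes takes all 9 members, of 34 further clock genes the activators, ROR receptors, D-box factors and repressors above 1 FPKM and any other past 2-fold in a treated comparison, and the 3 genes most like each member in pattern. Some listed genes are not reported here. Members and lists were chosen with earlier results of these data known. Gene positions are from GENCODE v44 on hg38, and promoter sequences from RefSeq on GRCh38.p14. Alternatives were pseudocounts of 1 and 0.01, no filter or one above 5 FPKM, centring on the median or a trimmed mean (30% trimmed at each end), the top entry where a symbol has several, 1.5- and 3-fold as the call and the vehicle of the other series. Python 3.11.15, numpy 2.4.6, pandas 2.3.3 and matplotlib 3.10.9 were used, and the counting was tested on simulated data.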

Additional observations from a re-analysis of the deposited data

Results flagged for a closer look

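RORA in C4-2B cells stood above its vehicle with UA at 24 h (log2 ratio 1.19) and below it at 48 h (-1.16), both past 2-fold and of opposite sign, in 1 library each. Both calls were lost with a pseudocount of 1 and with a filter above 5 FPKM. The difference between the times was not tested. RORA levels in these 4 libraries ran from 0.63 to 2.64 FPKM.

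PER1 with 10 µM UA stood below vehicle at both times in C4-2B cells (-0.23 and -0.87) and above it at both times in HCC70 cells (0.33 and 1.27). The difference between the lines was not tested. The HCC70 vehicles themselves differed by -0.53 for 48 over 24 h, and at 5 µM and 24 h PER1 stood below vehicle (-0.23). In C4-2B cells the sign of PER1 turned with the vehicle of the other series.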

How the results depend on the processing

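No paired analysis was possible because each condition has 1 library and the labels give no replicate numbers, and no library could be left out of a comparison for the same reason. The main counts of members past 2-fold were 1 and 1 with UA in C4-2B cells at 24 and 48 h, 0 and 0 with digoxin, 0 and 0 at 5 µM UA and 0 and 5 at 10 µM UA in HCC70 cells. With a pseudocount of 1, a filter above 5 FPKM or a 3-fold threshold the counts of UA in C4-2B cells were 0 at 24 h and 0 at 48 h, and at 3-fold that of 10 µM at 48 h was 2 (RORA and PER3). With 1.5-fold they were 3 for UA in C4-2B cells at 48 h, 1 and 4 for digoxin at 24 and 48 h, and 1 at 10 µM and 24 h. Of all genes 7.93%, 16.9%, 20.5% and 13.3% were past 1.5-fold in these comparisons, in the same order. For the other alternatives of this section no share of all genes is given. A pseudocount of 0.01 gave 1 for digoxin at 48 h, and no filter gave 1 at 5 µM and 48 h and 1 at 10 µM and 24 h, RORA in each. With a pseudocount of 1 the RORA ratio at 5 µM and 48 h was 0.83, with 0.01 it was 4.77, and with 0.1 it was 2.92.

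Against the vehicle of the other series, which differs in series as well, the counts were 2 and 2 for UA and 1 and 1 for digoxin at 24 and 48 h. The medians of the members then moved from -0.16 and -0.03 to 0.13 and -0.16 with UA, and from 0.33 and 0.43 to -0.066 and 0.11 with digoxin. Centring on the median or a trimmed mean of all genes moved the members' median with digoxin at 24 h to 0.21 and 0.19 and that at 10 µM and 48 h in HCC70 cells from -0.10 to 0.099 and 0.012. At 5 µM and 48 h the median was -0.19, with no filter -0.090 and above 5 FPKM -0.43. The causes were not tested beyond what each setting changes by construction. The 5 members called at 10 µM and 48 h kept their calls under both centrings, both pseudocounts, no filter and the highest entry of a symbol. RORA lost its call with a filter above 5 FPKM, and NR1D1, PER1 and DBP lost theirs at 3-fold. PER2 was called in addition with a pseudocount of 0.01 and at 1.5-fold.

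Depth limits RORA most, at about 3 to 5 fragments in the HCC70 vehicles. The leave-out of the HCC70 library of 10 µM and 48 h from the pattern comparison was chosen after the data were seen. Times 24 h apart cannot follow a daily rhythm, so a shift in clock phase and a change in level cannot be told apart.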
